A study of Homo sapiens with 4 samples.

Results

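The collagen genes COL4A1 and COL4A2 lie side by side near the end of the long arm of chromosome 13, at 13q34, and the stretch of chromatin around them was read for its contact with the nuclear lamina in 2 prostate cancer cell lines. The stretch covers chromosome 13 from 109000000 to 115100000 in hg19, and 150 bins overlap it, of the 71569 bins measured in both lines. Of these 150, 50 make up an interval from 110760001 to 112840000 that was chosen by the measured values themselves: its bins carry the associated label in VCaP and lack it in LNCaP, and the gap between the lines is large there. The values inside the interval are therefore given as a description, without a test. At its centromere end VCaP had 0.19 in the last bin outside and 0.36 in the first inside, and at its telomere end LNCaP had -0.01 in the last bin inside and 0.60 in the first outside. Marked in the stretch are 4 genes, IRS2 (110406000 to 110439000), COL4A1 (110801000 to 110960000), COL4A2 (110959000 to 111166000) and SOX1 (112721000 to 112727000), placed to the nearest kilobase.

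The data come from chromatin immunoprecipitation and sequencing with a lamin B1 antibody in LNCaP, an established line labelled as prostate adenocarcinoma, and VCaP, an established line labelled as bone metastatic prostate cancer. Both lines were grown in medium with serum, and fixation with formaldehyde is the only treatment the labels give. Each line gave 1 lamin B1 library and 1 input library made without antibody, so each of the 4 groups holds 1 library and nothing below has a replicate check. Each value is the log2 of lamin B1 ChIP over input in a bin of mostly 40 kb, and a hidden Markov model of the authors labels each bin as associated or not. The tables hold the ratio only, so less lamin B1 signal and more input DNA cannot be told apart in a low value. Read numbers were not analysed here, and the depth is unknown. As the only error at hand, the spread of single bins was taken from pairs of bins 3 apart, and its SD, called noise here, came to 0.15 for the LNCaP library and 0.23 for the VCaP library (log2 units). It describes positions within a library and does not measure how libraries of a line vary, so it gives no test of a difference between the lines.

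Lamin B1 is part of the protein mesh that lines the inside of the nuclear envelope, and chromatin recovered with it forms lamina-associated domains. Such domains are mostly gene-poor and hold many genes that are silent in the cell at hand, while gene-dense, active chromatin lies more often in the interior of the nucleus. COL4A1 and COL4A2 encode the chains of the most widespread type IV collagen, the sheet-forming collagen of basement membranes, on which epithelia such as the prostate glands rest. They are transcribed away from each other from a shared promoter. IRS2 encodes an adaptor that carries signals from the insulin and IGF1 receptors to PI3 kinase, and SOX1 encodes a transcription factor of neural progenitors.

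The starts of COL4A1 and COL4A2 are 126 bases apart in the RefSeq promoter table (GRCh38.p14), so no bin of these data can separate them. Across the 35116 starts of that table, 1158 starts on the minus strand had a plus-strand start within this distance on the diverging side. The stretch between the collagen starts is shown because both genes turn on it, and the same length before the IRS2 and SOX1 starts is shown beside it for comparison. All 4 genes matched the table by symbol. Each is written 5′ to 3′ on the strand of COL4A2 (plus), IRS2 (minus) and SOX1 (plus), and capitals mark the GC box, GGGCGG, and the CCAAT box, CCAAT, searched on both strands. The GC and CCAAT boxes do not overlap each other, but the GC boxes before IRS2 share a base.
COL4A1 and COL4A2: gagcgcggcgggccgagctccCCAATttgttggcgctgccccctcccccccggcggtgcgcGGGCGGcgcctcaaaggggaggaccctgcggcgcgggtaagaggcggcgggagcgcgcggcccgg
IRS2: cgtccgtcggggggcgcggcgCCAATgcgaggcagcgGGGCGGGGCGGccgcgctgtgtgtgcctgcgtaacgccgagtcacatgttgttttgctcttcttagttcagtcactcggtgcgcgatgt
SOX1: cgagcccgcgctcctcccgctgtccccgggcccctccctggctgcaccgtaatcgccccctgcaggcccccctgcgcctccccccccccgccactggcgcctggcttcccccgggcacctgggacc

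The collagen stretch held 1 CCAAT box and 1 GC box, the IRS2 stretch 1 CCAAT box and 2 GC boxes, and the SOX1 stretch neither motif. Of all promoters, 21.1% held a CCAAT box and 34.6% a GC box in the same window of 126 bases. GC content was 80.2% between the collagen starts, 66.7% before IRS2 and 80.2% before SOX1, against a median of 60.3% over all promoters. CpG pairs numbered 20, 18 and 11, against a median of 6. All 3 stretches lay above the median of promoters in both measures.

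COL4A1 was low in LNCaP and high in VCaP in every bin. From its 3′ end to its start, its 4 bins had log2 enrichments of -1.71, -1.82, -1.77 and -1.74 in LNCaP. The same bins had 0.62, 0.73, 0.86 and 0.78 in VCaP. The lines did not overlap, and the mean was -1.76 in LNCaP (SD over bins 0.05) and 0.75 in VCaP (SD over bins 0.10). VCaP minus LNCaP was 2.51 log2 units, a value that the choice of the interval had selected for.

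COL4A2, transcribed in the other direction, had nearly the same levels. Its 7 bins, the first shared with COL4A1 and holding both starts, had -1.74, -1.65, -1.70, -1.74, -1.80, -1.77 and -1.91 in LNCaP. In VCaP they had 0.78, 0.84, 0.81, 0.80, 0.78, 0.86 and 0.77. The deposited values were flat in both lines, with SDs over bins of 0.08 and 0.03. Each deposited value is a mean of 3 bins, which narrows such SDs. With that mean undone, the bins ran from -2.22 to -1.56 in LNCaP and from 0.45 to 1.01 in VCaP. The mean of the deposited values was -1.76 in LNCaP against 0.81 in VCaP. VCaP minus LNCaP was 2.56, selected in the same way. The collagen genes differed from each other by 0.0030 in LNCaP and 0.058 in VCaP, less than the noise of a bin within either library. All of their 10 bins were labelled associated in VCaP and not associated in LNCaP. In the genome, 23.8% of bins had this pair of labels, which is also the pattern by which the interval was chosen.

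IRS2 lay in the same LNCaP depth but had another VCaP level. It occupies a single bin, 362 kb from COL4A1, with -1.94 in LNCaP and -0.03 in VCaP, and the bin was not associated in either line. VCaP minus LNCaP was 1.91. In VCaP the IRS2 bin was 0.78 below the COL4A1 mean, and between them, from 110440001 to 110800000, VCaP rose through a mean of 0.18 while LNCaP stayed at -1.83.

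SOX1 also occupies 1 bin, which had -1.41 in LNCaP against 0.73 in VCaP, with a difference of 2.14. Its LNCaP value was the highest of the 4 genes, and its VCaP value lay within the range of the collagen bins. Ordered by LNCaP level the genes ran IRS2, COL4A1, COL4A2 and SOX1, and the first 3 lay within 0.18 of each other, about 1 noise SD of a bin. In VCaP the order was IRS2, SOX1, COL4A1 and COL4A2, and the last 3 did not differ beyond the noise.

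**Figure D1:**
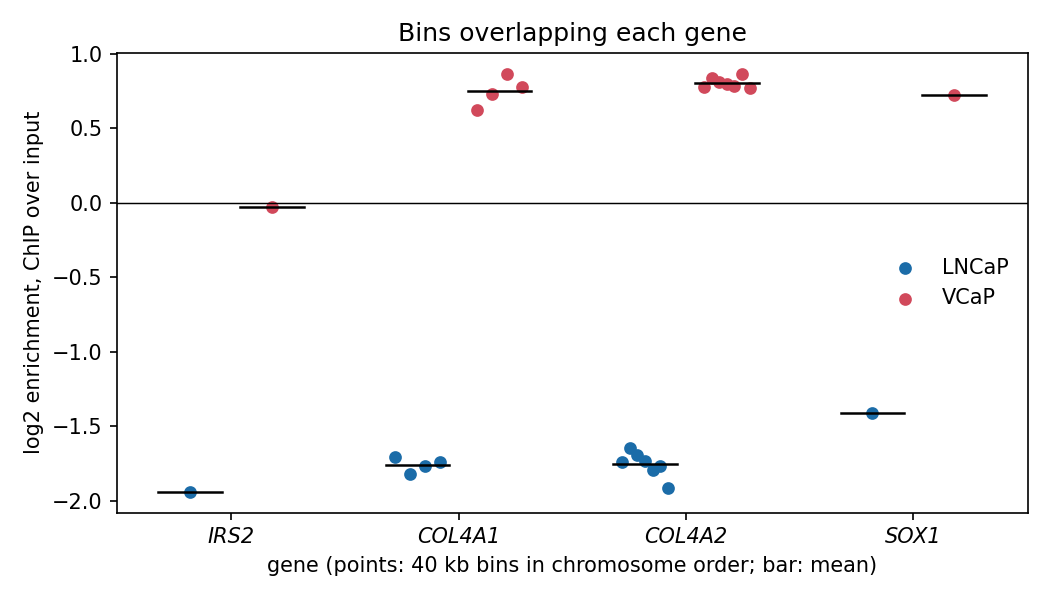
Log2 enrichment of lamin B1 ChIP over input (y axis) in each bin overlapping IRS2, COL4A1, COL4A2 and SOX1, with points for bins in chromosome order, a bar for their mean, LNCaP in blue and VCaP in red. LNCaP is at or under -1.41 in every bin, and VCaP is at -0.03 in the IRS2 bin and at 0.62 or more in the others.

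Inside the interval LNCaP averaged -1.66 and VCaP 0.64, and over the 100 bins of the stretch outside it they averaged -0.24 and 0.43. The inside minus outside value was thus -1.42 in LNCaP and 0.21 in VCaP. The outside mean of LNCaP joined unlike parts. The 44 bins on the centromere side, IRS2 among them, had a mean of -1.25 and a range of -1.96 to -0.24. The 56 bins on the telomere side had a mean of 0.55 and a range of 0.13 to 0.93. Against the centromere side alone the LNCaP interval differed by -0.41, and against the telomere side alone by -2.21. VCaP had 0.14 on the centromere side and 0.65 on the telomere side, so there the interval minus the centromere side was 0.50 and minus the telomere side -0.02, the latter within the noise.

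The low LNCaP values did not begin at the interval. In the deposited values, bins at or under -1 formed an unbroken run from 109720001 to 112760000, a span of 3.04 Mb in 74 bins. Of these, 26 lay outside the interval on the centromere side. With the mean of 3 bins undone, an entry of 120 kb within the run read -0.0027 in LNCaP, so the run crosses it through the averaging. This run, called the trough here, was delimited after its values were seen. It held all 4 genes. In the genome 0.655% of bins were at or under -1 in LNCaP, 469 in number, and the trough alone held 15.8% of them. The rest of chromosome 13 held 6. VCaP had no bin at or under -1 in the stretch, and its genome share of 0.282% would also give few or none there.

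The trough floor, cut at -1 in LNCaP, varied little there in the deposited values. Its mean was -1.73 with an SD of 0.19 over the 74 bins and a range of -2.08 to -1.15 in LNCaP. VCaP in the same bins had a mean of 0.44, an SD of 0.34 and a range of -0.33 to 1.09. The VCaP values were not cut, so the SDs of the lines are not on the same footing. The part of the trough outside the interval had a LNCaP mean of -1.75, and the part within it -1.72, so the LNCaP level did not change at the interval's border near COL4A1. The VCaP means of the same parts were 0.09 and 0.63.

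**Figure D2:**
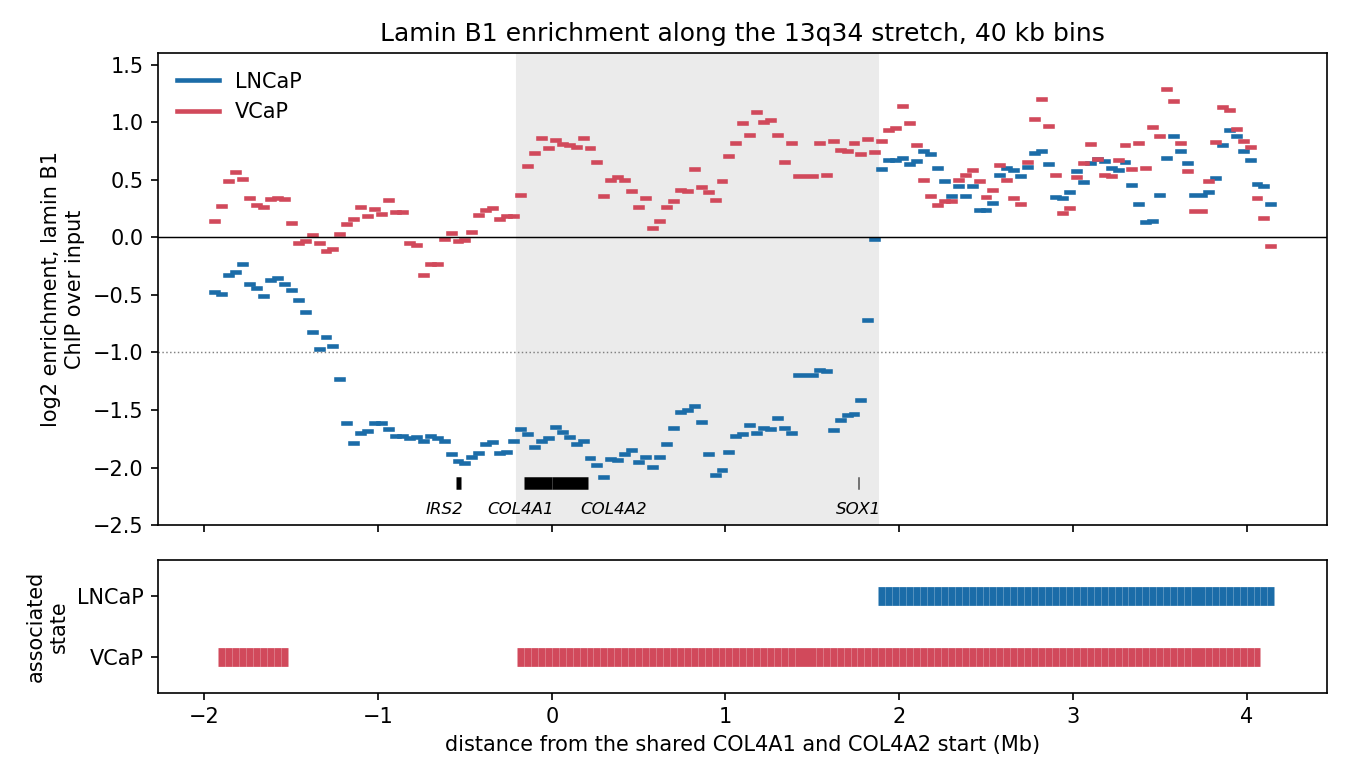
Log2 enrichment of lamin B1 ChIP over input (upper y axis) for each bin of LNCaP (blue) and VCaP (red) against distance in Mb from the COL4A1 and COL4A2 starts, with the interval shaded, a dotted line at -1, genes as black bars, and the associated bins of each line below. Deposited LNCaP values stay at or under -1 for 3.04 Mb across all 4 genes, and VCaP turns to the associated state beside COL4A1.

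The differences between the lines followed this shape. VCaP exceeded LNCaP by more than 1 log2 unit, a 2-fold ratio, in 49 of the 50 interval bins and in 26 of the 100 bins outside it, against 3.84% in the genome. All 26 belonged to the trough. No bin of the stretch differed by more than 1 in the other direction. Above 2 log2 units the genome held 161 bins, and 47 of them, 29.2%, were in the trough. The trough was cut at low LNCaP values and the interval was chosen for its gap between the lines. These counts therefore follow in part from those choices. Telomeric to the interval no bin passed 1, and the mean difference was 0.11 with a range of -0.37 to 0.82.

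The edges of the trough differed from each other. On the telomere side, the median of 8 bins went from -1.47 to 0.65 in LNCaP at position 112760000, a step of 2.12. This is 14.2 times the SD of a bin. Elsewhere in the genome, 24 of 70132 positions had a LNCaP step as large in either direction. Both edges were placed where LNCaP crosses -1, so the LNCaP steps there follow in part from that choice. The bins before this edge include the 120 kb entry within the trough, and with the mean undone the LNCaP step was 2.18. VCaP at the same place went from 0.76 to 0.89, a step of 0.14. The deposited LNCaP values took 3 bins to cross, with -0.72 and -0.01 on the way, each deposited value being a mean of 3 bins. With that mean undone, the SOX1 bin had -1.17 and the next bin 0.52, so the crossing fell between neighbouring bins. The SOX1 gene ends 33.0 kb from this border. The last 2 bins of the interval, 80.0 kb, lay beyond it, and with the mean undone they averaged 0.57 in LNCaP and 0.81 in VCaP.

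On the centromere side the LNCaP descent was longer. The median of 8 bins went from -0.73 to -1.64 at position 109720000, a step of -0.90. Elsewhere 253 of 70131 positions had one as large, and this edge too was set by the LNCaP values. The 18 bins of the stretch before it already had a mean of -0.53 and fell to -0.97, whereas VCaP had a mean of 0.20 there and a step of 0.24 at the edge. With the mean undone, the LNCaP bins from 109640001, 109680001 and 109720001 had -0.53, -1.27 and -1.89, so part of this descent was steep. IRS2 lies 686 kb inside this border.

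**Figure D3:**
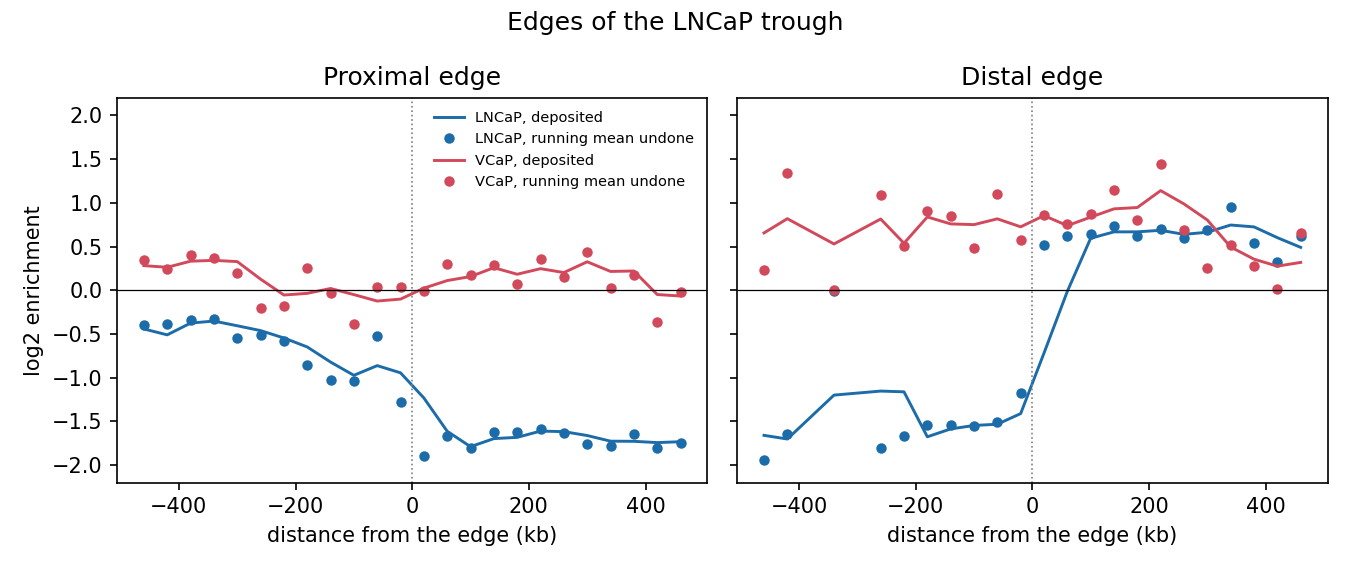
Log2 enrichment (y axis) within 480 kb of the centromere-side (left) and telomere-side (right) edge of the LNCaP trough against distance in kb, with lines for deposited values and points for values with the running mean of 3 bins undone, LNCaP in blue and VCaP in red. With the mean undone, the telomere-side edge is crossed between neighbouring bins, from -1.17 to 0.52 in LNCaP. At the other edge LNCaP passes through -0.53, -1.27 and -1.89 in successive bins.

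At the interval's own border beside COL4A1, VCaP stepped from 0.19 to 0.79 at position 110760000, a step of 0.60 or 2.67 times the SD of a bin, and 6.28% of positions elsewhere had one as large. LNCaP went from -1.87 to -1.72 there, a step of 0.15 or 0.98 times the SD of a bin. This border, 41.0 kb from COL4A1, was set by where the VCaP label begins, so the VCaP step there is a description.

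The interval was cut from the deposited states, so their layout inside it is fixed, and what the states add is how far the domains reach beyond it. In VCaP one domain ran without a break from 110760001 to 115040000, with 104 bins and a mean of 0.66, past the LNCaP edge at SOX1. It ranked 39 by number of bins among 1230 VCaP domains, whose median was 14 bins. A shorter VCaP domain of 10 bins lay from 109040001 to 109440000. LNCaP had 1 domain in the stretch, from 112840001 to the last bin of the chromosome at 115169878, with 57 bins and a mean of 0.54. Associated bins inside the interval numbered 0 in LNCaP and 50 in VCaP by its choice. Outside it they numbered 56 and 64 of 100, against 37.9% of the genome in LNCaP and 44.4% in VCaP.

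VCaP was not level across the interval. After the collagen genes it sank to 0.08 in the bin from 111520001, rose to 1.09 in the bin from 112120001, the interval's highest, and stood at 0.73 at SOX1. Between COL4A2 and SOX1, 1555 kb apart, the VCaP mean was 0.59 with an SD of 0.26 over 36 bins, and the LNCaP mean was -1.71 with an SD of 0.24. RefSeq places 8 protein-coding genes between them, 7 of which have names other than a locus number. In order they are RAB20, a small GTPase of membrane traffic, NAXD, a repair enzyme of damaged NADH and NADPH, CARS2, the mitochondrial cysteinyl-tRNA synthetase, ING1, a reader of histone methylation, ANKRD10, ARHGEF7 and TEX29. Their hg19 positions were not used here. If their order is the same in hg19, they lie within the trough, and no value is given for each. MYO16, an unconventional myosin, is the neighbour of IRS2 on the centromere side, and SPACA7 that of SOX1 on the telomere side.

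A run of 11 bins in the interval lay at or within 5 bins of a table entry of 120 kb, from 112360001 to 112480000. This entry read -1.20 in LNCaP and 0.53 in VCaP, and with the mean undone -0.0027 and 0.0010, near 0 like wide entries elsewhere. It raised the LNCaP values of the next 2 bins to -1.15 and -1.16 through the averaging. None of the bins of the 4 genes lay beside it. The trough runs across this entry unbroken in the deposited values only, and no trough was delimited with the mean undone.

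How far the bins of the lines moved together along the stretch is given as a description. Pearson's r between the lines was 0.88 over the 18 bins centromeric to the trough and 0.55 over the 56 bins telomeric to the interval. Within the trough it was 0.24 over 74 bins, and 0.13 over the 63 of them away from the wide entry. With the mean undone these values were 0.64, 0.59, 0.13 and 0.26. Of the 56 telomeric bins, 15 lay at or within 5 bins of a wide entry or near the chromosome end. They were not left out, so the 0.55 is not on the same footing as the 0.13 over 63 bins. Neighbouring bins share averaged values, so the 18, 56 and 74 bins hold only 6, 18 and 24 that share none. The difference between these correlations was not tested, and over the rest of chromosome 13 r was 0.32.

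**Figure D4:**
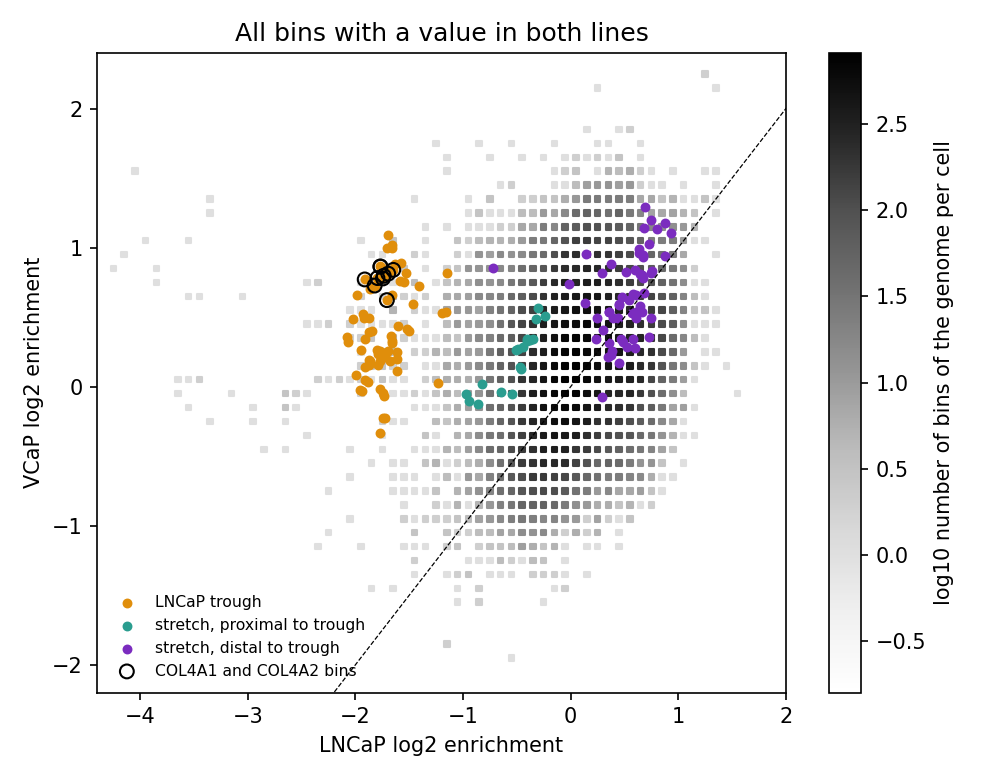
LNCaP (x axis) against VCaP (y axis) log2 enrichment, with grey squares for the number of bins of the genome per cell of 0.1 by 0.1 log2 units, coloured points for bins of the stretch, circles for the bins of COL4A1 and COL4A2, and a dashed line of equality. The trough, cut at -1 in LNCaP, lies to the left by that choice, at or under -1.15, where other bins of the genome also fall. VCaP in the trough spans -0.33 to 1.09.

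Set against the genome, as a description of values that chose the interval within it, the trough was the longest of 130 runs at or under -1 in LNCaP, whose median was 2 bins. It had 2.74 times the bins of the next, on chromosome X from 66040001 to 67120000, which had 27 bins and averaged -2.72 in LNCaP, with VCaP at -0.12. The third, on chromosome 11 from 63240001 to 64280000, had 26 bins and means of -1.54 and 0.54. Depth set the trough apart less than length: of the 19 runs with 5 bins or more, 4 had a lower LNCaP mean. Among windows of 50 bins outside the stretch, 0 of 67666 had a LNCaP mean as low as the interval, and the lowest had -1.52. The interval was chosen with these LNCaP values in view, so this rank lends it no support. As to VCaP, 8.62% had a mean as high. For windows of 10 bins, the length of the collagen genes, 40 of 70478 were as low in LNCaP and 26 differed as much between the lines.

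**Figure D5:**
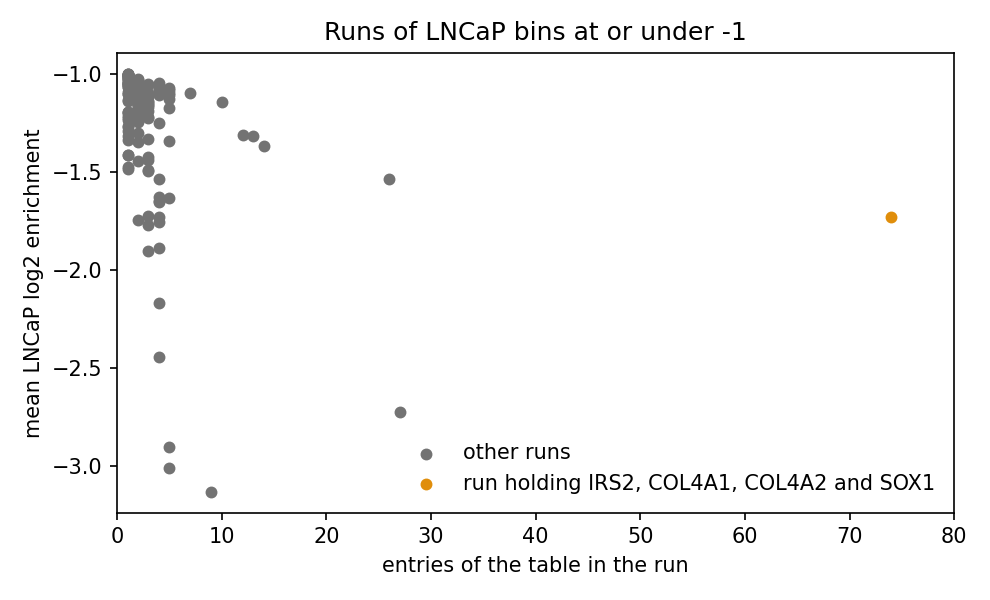
Number of table entries (x axis) against mean LNCaP log2 enrichment (y axis) for each of the 130 runs of bins at or under -1 in LNCaP, with the run that holds IRS2, COL4A1, COL4A2 and SOX1 in orange. It has 74 entries, and the next has 27.

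The windows of 10 bins most like the collagen genes, by distance in the plane of both line means, lay on 4 other chromosomes. The nearest was on chromosome 21 from 9800001 to 10200000, with -1.77 in LNCaP and 0.84 in VCaP, at a distance of 0.06. Next came chromosome 22 from 20240001 to 20680000, with -1.70 and 0.84 (distance 0.08), and chromosome 11 from 63680001 to 64080000, with -1.58 and 0.74 (0.19). The remaining windows of the 5, both on chromosome 2 from 47480001 to 47880000 and from 47880001 to 48280000, were already 0.33 and 0.51 away. Most of these windows were uneven in LNCaP: the SD over their bins was 1.38 on chromosome 21, 1.57 on chromosome 22, and 1.57 and 1.49 on chromosome 2, so each mean joins deep and shallow bins, such as -4.07 and -0.18 on chromosome 21. The window on chromosome 11 had an SD of 0.12, against 0.07 over the 10 collagen bins. The rest of chromosome 13 had means of -0.06 in LNCaP and -0.02 in VCaP.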

How the data were processed

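Lamin B1 ChIP and input libraries of LNCaP and VCaP were grouped by the titles in the labels, 1 library per group. The authors deposited, for each line, a log2 enrichment of ChIP over input per bin and a table of hidden Markov model states (AD, iAD), of which AD, with the higher median log2 value, was taken as associated. The submitters' processing notes name STAR and hg19; the scaling of ChIP to input is not given in the sources used here.

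Wide entries had a median absolute log2 value of 0.20 in LNCaP and 0.33 in VCaP as deposited, and 0.01 in both after undoing a trailing mean of 3 entries, so values were treated as such means. A bin belongs to a gene if it overlaps it by 1 base. Noise is the scaled median absolute difference of bins 3 apart, and the SD of a mean counts 1 separate value per 3 bins. Edge steps compare medians of 8 bins on each side. Genes named with values are the 4 given, and the 5 most alike windows were taken by Euclidean distance. Members, lists and alternatives were chosen with earlier results of these data known. Basement membrane, IRS and SOX genes elsewhere were listed but not analysed here, since the gene table is of GRCh38. The undone mean, runs and steps were tested on simulated data. The tools were scipy 1.17.1, pandas 2.3.3, matplotlib 3.10.9 and numpy 2.4.6 under Python 3.11.15.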

Additional observations from a re-analysis of the deposited data

Results flagged for a closer look

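Lamin B1 signal over input was negative in LNCaP and positive in VCaP at COL4A1 (VCaP minus LNCaP 2.51), COL4A2 (2.56) and SOX1 (2.14). The same held for the mean of the interval (2.30) and of the LNCaP trough (2.17). With 1 library pair per line these differences were not tested. IRS2 was below 0 in both lines, with -0.03 in VCaP, a value within the noise of 0.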

How the results depend on the processing

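The 27 results were recomputed under 121 alternatives, of which 91 stayed within the noise or within 1.5 times a count, and 30 moved. The sign turned for 1 small value, the VCaP step at the telomere-side edge of the interval, which was 0.13 as reported, -0.057 with the running mean undone and -0.11 with 12 bins on each side. With quantile normalization the VCaP minus LNCaP difference was 1.48 at IRS2, 2.07 at COL4A1, 2.12 at COL4A2 and 1.83 at SOX1, and the inside minus outside value of LNCaP was -1.26. With each line centred on its median, COL4A2 differed by 2.43. With the running mean undone, SOX1 differed by 1.75 and the LNCaP inside minus outside value was -1.36. Shifting values 1 bin upstream brought SOX1, the gene beside the edge, to 1.57. The LNCaP inside minus outside value was also -1.31 without bins beside gaps, -2.00 with medians and -1.05 against 25 bins on each side, and the VCaP value was 0.37 with medians. Calling bins over 0.5 associated gave 34 LNCaP and 39 VCaP bins outside and 33 VCaP bins inside. Bins outside past the fold numbered 51 at 2 SD of noise and 5 at 2 log2 units. With 4 bins on each side the LNCaP step at the telomere-side edge was 1.73. Windows as long as the collagen genes gave 40 and 26 windows elsewhere as extreme, in place of 0 and 0. Chosen after seeing the data, thresholds of -0.75, -1.25 and -1.5 gave troughs of 78, 65 and 50 bins. SOX1 (-1.41) left the run at -1.25 because the 120 kb entry (-1.20) and the 2 bins after it (-1.15 and -1.16) broke it. At -1.5 the run already ended before the bin from 111760001 (-1.47), and the value of SOX1 was itself above the threshold. The cause of the other shifts was not tested. Gene-only bins could not be formed for IRS2 and SOX1, which are shorter than a bin. No paired analysis was possible because no group holds more than 1 library. With the depth unknown, precision is known only from the spread between bins.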
